A study of Mus musculus with 9 samples.

Results

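The genes described are 9 through which islet endocrine cells sense glucose, lipids and incretin hormones, taken by symbol as the rows named Gpr119, Glp1r, Gipr, Gcgr, Ffar1, Tmem27, Kcnj11, Abcc8 and G6pc2, out of 33212 rows in the deposited count table. The RNA came from αTC1 cells, an established mouse line of glucagon-producing cells from a pancreatic alpha cell tumour, and was enriched for poly-A tails before sequencing. The groups were 4 libraries after 7 days with 4 µM EPZ011989, an inhibitor of the histone H3 lysine 27 methyltransferase EZH2, and 5 libraries after 7 days with the solvent DMSO. Both groups come from 1 cell line, grown in low-glucose medium per the labels, with no other cell line or dose. The comparison asks how EZH2 inhibition alters expression in these cells.

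Islet cells couple nutrients to hormone release in several ways. Glucose metabolism raises ATP, which closes the ATP-sensitive potassium (KATP) channel, built from the pore subunit that Kcnj11 encodes and the sulfonylurea receptor that Abcc8 encodes. Closing it depolarises the membrane. G6pc2 encodes the islet glucose-6-phosphatase catalytic subunit, which turns glucose 6-phosphate back into glucose. Ffar1 (long-chain fatty acids) and Gpr119 (fatty acid amides and monoacylglycerols) are lipid receptors. Glp1r, Gipr and Gcgr encode related class B receptors for glucagon-like peptide 1, the incretin GIP and glucagon, which signal mainly through cAMP. Tmem27, also called Cltrn, encodes collectrin, a membrane protein of islet and kidney cells.

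With EPZ011989, 4 of these 9 genes, of which 6 could be tested, were called lower, as were 7.96% of all genes tested. The 9 genes were chosen with earlier results of these data known, so this count supports nothing by itself. Tmem27 fell 4.67-fold and Gpr119 3.99-fold, while Kcnj11 and G6pc2 fell only to 0.817 and 0.824 times their DMSO levels. Abcc8, the partner subunit of Kcnj11 and the most abundant of the 9, did not pass the test, nor did Gipr, which was near the limit of detection. Glp1r, Gcgr and Ffar1 were at or near a count of 0 in both groups and could not be tested.

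Total counts per library lay between 60274140 and 74651782. The labels call the libraries biological replicates without saying whether each was its own culture, and the p-values cover only the library-to-library spread seen here. EPZ011989 replicates 2 and 4 took opposite extremes on principal component 2, so results are also given without them where they differ. The alpha cell identity of the line was checked with 7 listed markers (among them Gcg, Irx1, Irx2, Ttr and Pou3f4), whose summed level was 16946 to 23274 CPM (counts per 1000000, on library sizes scaled by TMM factors) in EPZ011989 libraries and 20562 to 22830 CPM in DMSO libraries. Most of that sum was Gcg (means 18633 CPM with EPZ011989 and 19280 CPM in DMSO), so it says little about the other markers. Beta cell markers (8) summed to 44.3 to 56.8 CPM with EPZ011989 and 38.3 to 43.5 CPM in DMSO, nearly all of it Nkx6-1 (44.3 CPM with EPZ011989 and 39.9 CPM in DMSO, not called). Of the 4 tested beta cell markers 3 were called higher, beside 16.2% of all tested genes. They were Ins2 (4.85 CPM with EPZ011989 and 0.653 CPM in DMSO), Mafa (1.78 and 0.541 CPM) and Iapp (0.840 and 0.0304 CPM). Iapp passed the filter on low counts through the EPZ011989 libraries, and Ins1, Pdx1 and Ucn3 were at 0 in every library. Fibroblast markers (8) summed to 30.6 to 41.8 CPM with EPZ011989 and 7.31 to 10.01 CPM in DMSO, where Col3a1, Thy1, Dcn and Lum were at 0. Of these, 4 of 5 tested were called higher, beside 16.2% of all tested genes, with Pdgfra the most abundant (27.6 CPM with EPZ011989 and 7.29 CPM in DMSO). Thy1 and Pdgfrb (0.0470 CPM in DMSO) passed the filter through the EPZ011989 libraries, so these counts of markers support nothing by themselves. Endothelial markers (3) summed to 0.393 to 1.352 CPM with EPZ011989 and 0.0969 to 0.3094 CPM in DMSO, and leukocyte markers (3 of 4 in the table) to 4.05 to 5.75 CPM with EPZ011989 and 0.983 to 1.812 CPM in DMSO. Delta, PP and epsilon markers (5) summed to 966 to 1608 CPM with EPZ011989 and 1357 to 1806 CPM in DMSO, nearly all of it Rbp4, and ductal and acinar markers (6) to 27.6 to 30.9 CPM with EPZ011989 and 19.1 to 24.8 CPM in DMSO. The part of these marker levels in the results below was not tested.

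The sequences before RefSeq starts of 3 of the genes that fell are shown because they are the windows in which motifs were looked for. RefSeq (GRCm38.p6) gave promoter windows for 6 of the 9 members, and none was used for Gipr, Kcnj11 or Abcc8. The windows searched hold 250 bases before a RefSeq start. The one printed for the first start of Tmem27 stops after 217 bases, before the first exon that GENCODE M21 gives there, and the window of its second start, which held none of the motifs, is not printed. The printed window lies inside the Tmem27 gene as GENCODE draws it, which begins further upstream. The window of the second start of G6pc2 likewise lies inside the G6pc2 gene. Capitals mark an E-box with the letters CAGATG, a motif that basic helix-loop-helix factors of islet cells can bind.
Tmem27 first start (chrX:164089937-164090153, plus strand): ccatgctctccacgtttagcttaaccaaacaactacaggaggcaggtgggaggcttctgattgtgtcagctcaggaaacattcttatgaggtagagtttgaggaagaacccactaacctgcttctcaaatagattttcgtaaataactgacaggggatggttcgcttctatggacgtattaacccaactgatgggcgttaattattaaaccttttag
Gpr119 (chrX:48674479-48674728, minus strand): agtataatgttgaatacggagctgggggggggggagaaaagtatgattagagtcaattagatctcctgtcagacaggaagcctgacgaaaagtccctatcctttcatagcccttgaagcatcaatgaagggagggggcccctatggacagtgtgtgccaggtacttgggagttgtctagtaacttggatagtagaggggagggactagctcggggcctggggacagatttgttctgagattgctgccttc
G6pc2 first start (chr2:69210823-69211072, plus strand): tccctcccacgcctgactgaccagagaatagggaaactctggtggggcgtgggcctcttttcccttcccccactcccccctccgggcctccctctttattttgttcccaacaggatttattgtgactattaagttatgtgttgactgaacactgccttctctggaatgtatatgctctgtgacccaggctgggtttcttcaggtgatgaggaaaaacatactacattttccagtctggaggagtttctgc
G6pc2 second start (chr2:69219699-69219948, plus strand): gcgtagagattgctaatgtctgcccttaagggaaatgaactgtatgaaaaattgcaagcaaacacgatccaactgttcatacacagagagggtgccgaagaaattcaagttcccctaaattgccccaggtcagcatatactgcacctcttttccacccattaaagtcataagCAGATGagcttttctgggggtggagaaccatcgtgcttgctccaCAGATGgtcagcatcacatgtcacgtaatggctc
The window of the second start of G6pc2, inside the gene, held the E-box at 78 to 73 and at 34 to 29 bases before that start. The window of Ffar1 held it once, within the exon that GENCODE M21 gives for Ffar1. Of 32851 RefSeq windows of 250 bases, 14.4% held an E-box of these letters. A FOXA motif (TGTTTAC, in 3.17% of all windows), a CRE (TGACGTCA, 1.55%) and a TATA box (TATAAA, 12.4%) had no match on either strand of any member window. These matches describe letters in the windows and do not show binding.

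Tmem27 (ENSMUSG00000015401, chromosome X, 164088830 to 164118860, GRCm38) was at 3.94, 4.76, 4.48 and 4.15 CPM in EPZ011989 libraries, against 18.8, 19.3, 21.2, 20.5 and 21.3 CPM in DMSO libraries. The groups were far apart, and every EPZ011989 library held between 19.5% and 23.5% of the DMSO mean. The means were 4.33 ± 0.36 CPM with EPZ011989 (SD, n = 4) and 20.2 ± 1.1 CPM in DMSO (n = 5). The log2 fold change was -2.22 ± 0.09 (SE), a fall of 4.67-fold (Benjamini-Hochberg adjusted p = 2.64e-07, quasi-likelihood test of edgeR). Behind these levels stood 296 to 340 counts per EPZ011989 library and 1215 to 1530 counts per DMSO library. In bulk RNA, fewer cells that express a gene and less of its RNA per cell cannot be told apart. No other gene's annotated exons overlap those of Tmem27 or of any other member. Ranked by log2 fold change among the 10310 tested genes that averaged 5 CPM or more, Tmem27 was number 1 from the lowest.

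Gpr119 (ENSMUSG00000051209, chromosome X, 48667979 to 48674478) was at 4.04, 4.33, 1.73 and 2.43 CPM in EPZ011989 libraries, against 10.97, 9.64, 14.91, 14.37 and 12.64 CPM in DMSO libraries. It was lower in every EPZ011989 library, and replicates 3 and 4 were lower than replicates 1 and 2, so the fall varied more between libraries than that of Tmem27. The share of the DMSO mean ran from 13.8% to 34.7%. Means were 3.13 ± 1.26 CPM with EPZ011989 and 12.5 ± 2.2 CPM in DMSO, a log2 fold change of -1.997 ± 0.26 (SE, adjusted p = 2.86e-04, edgeR). Gpr119 was number 2 from the lowest by log2 fold change among the same 10310 genes.

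Both of these genes lie on the X chromosome, far apart. Of 502 tested genes on X, 5.78% were called lower and 15.9% higher, against 8.07% lower and 16.3% higher of 14075 tested genes on other chromosomes. The share of genes called lower was thus not larger on X.

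**Figure D1:**
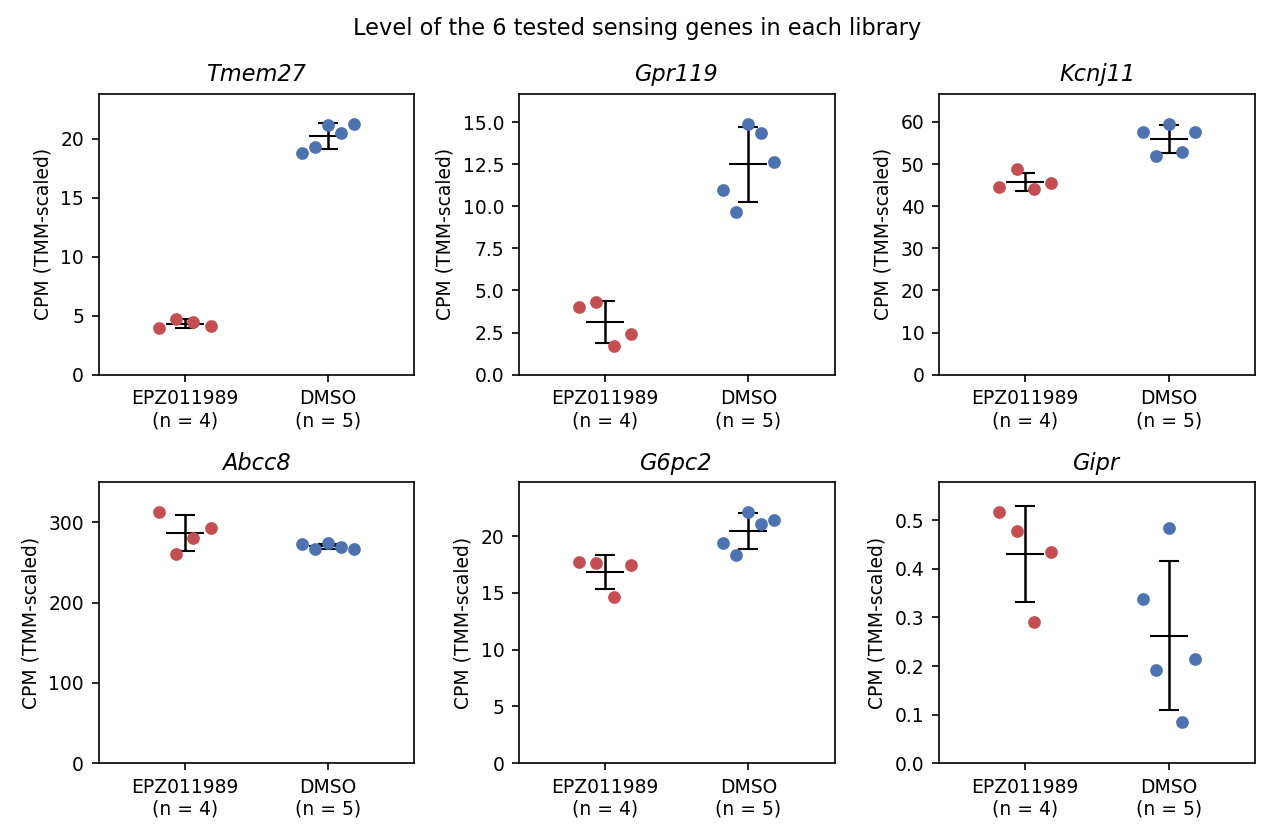
CPM (y axis, from 0) of the 6 tested genes in each of 4 EPZ011989 libraries (red) and 5 DMSO libraries (blue), with black lines for the mean ± SD. Tmem27, Gpr119, Kcnj11 and G6pc2 have every EPZ011989 library below every DMSO library, and Abcc8 and Gipr overlap.

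Kcnj11 (ENSMUSG00000096146, chromosome 7, 46093953 to 46100764) was at 44.5, 48.8, 44.1 and 45.4 CPM in EPZ011989 libraries, against 57.6, 51.9, 59.6, 52.9 and 57.7 CPM in DMSO libraries. The groups did not overlap, but the highest EPZ011989 library, replicate 2, came close to the lowest DMSO library. Means were 45.7 ± 2.1 CPM with EPZ011989 and 55.9 ± 3.4 CPM in DMSO, a log2 fold change of -0.29 ± 0.07 (SE, adjusted p = 0.0102, edgeR), or 0.817 times the DMSO level.

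Abcc8 (ENSMUSG00000040136, chromosome 7, 46104523 to 46180033) is the gene next to Kcnj11, 3.758 kb away on the same strand. It was at 312.5, 260.3, 280.5 and 293.3 CPM in EPZ011989 libraries, against 272.2, 267.1, 273.6, 269.1 and 267.0 CPM in DMSO libraries. The EPZ011989 libraries lay on both sides of the narrow DMSO range, with replicate 2 below it and replicate 1 highest. Means were 287 ± 22 CPM with EPZ011989 and 270 ± 3 CPM in DMSO, and the change of 0.09 ± 0.06 (log2, SE) missed the threshold (adjusted p = 0.379, edgeR). Its 95% interval ran from -0.04 to 0.21, which does not include the fold change of Kcnj11.

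The count ratio of the channel's subunits was tested directly, within each library. Abcc8 over Kcnj11 was 7.03, 5.34, 6.36 and 6.46 in EPZ011989 libraries, against 4.73, 5.15, 4.59, 5.09 and 4.63 in DMSO libraries. The ratio was higher in 4 of 4 EPZ011989 libraries than in any DMSO library, with replicate 2 the closest. The mean log2 ratio was 2.65 ± 0.17 with EPZ011989 (SD, n = 4) and 2.27 ± 0.08 in DMSO (n = 5), a difference of 0.38 (two-sided exact permutation test, p = 0.00794, the smallest p that 4 against 5 libraries allow). It was the only ratio tested, since Gpr119 over Ffar1 and Gcgr over Gipr had counts of 0. Per kilobase of exon, Abcc8 stood at 35.4 CPM and Kcnj11 at 12.4 CPM with EPZ011989, a ratio of 2.85, and at 33.3 and 15.2 CPM in DMSO, a ratio of 2.19.

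**Figure D2:**
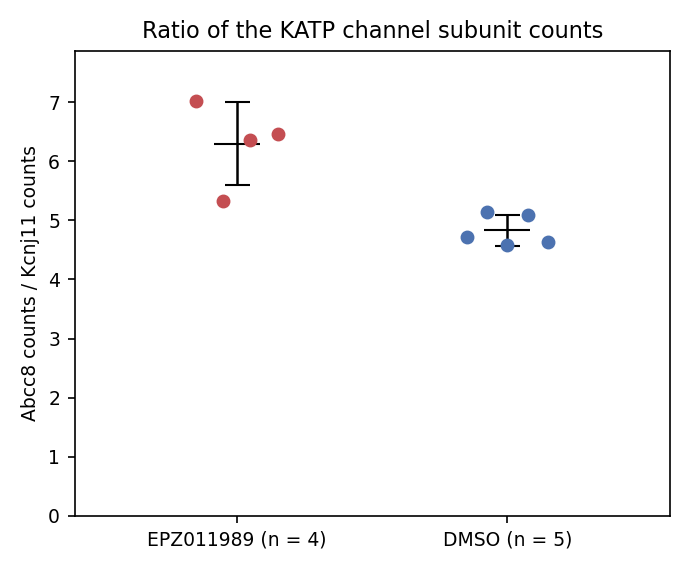
Ratio of Abcc8 counts to Kcnj11 counts (y axis, from 0) in each EPZ011989 library (red, n = 4) and DMSO library (blue, n = 5), with black lines for the mean ± SD. EPZ011989 libraries lie between 5.34 and 7.03, above the DMSO libraries at 4.59 to 5.15.

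G6pc2 (ENSMUSG00000005232, chromosome 2, 69211073 to 69227841) was at 17.71, 17.68, 14.65 and 17.43 CPM in EPZ011989 libraries, against 19.4, 18.3, 22.1, 21.1 and 21.4 CPM in DMSO libraries. The groups did not overlap, with replicate 3 set apart below the other EPZ011989 libraries. Means were 16.9 ± 1.5 CPM with EPZ011989 and 20.5 ± 1.6 CPM in DMSO, a log2 fold change of -0.28 ± 0.09 (SE) that passed narrowly (adjusted p = 0.0454, edgeR). The call was lost without EPZ011989 replicate 3 (adjusted p = 0.129) and without DMSO replicate 3 (0.0809), 4 (0.0738) or 5 (0.0672). It was also lost with upper-quartile factors (0.106) or library size alone (0.0926) in place of TMM factors and with no filter (0.0539), and it passed in 12 of 20 alternatives.

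**Figure D3:**
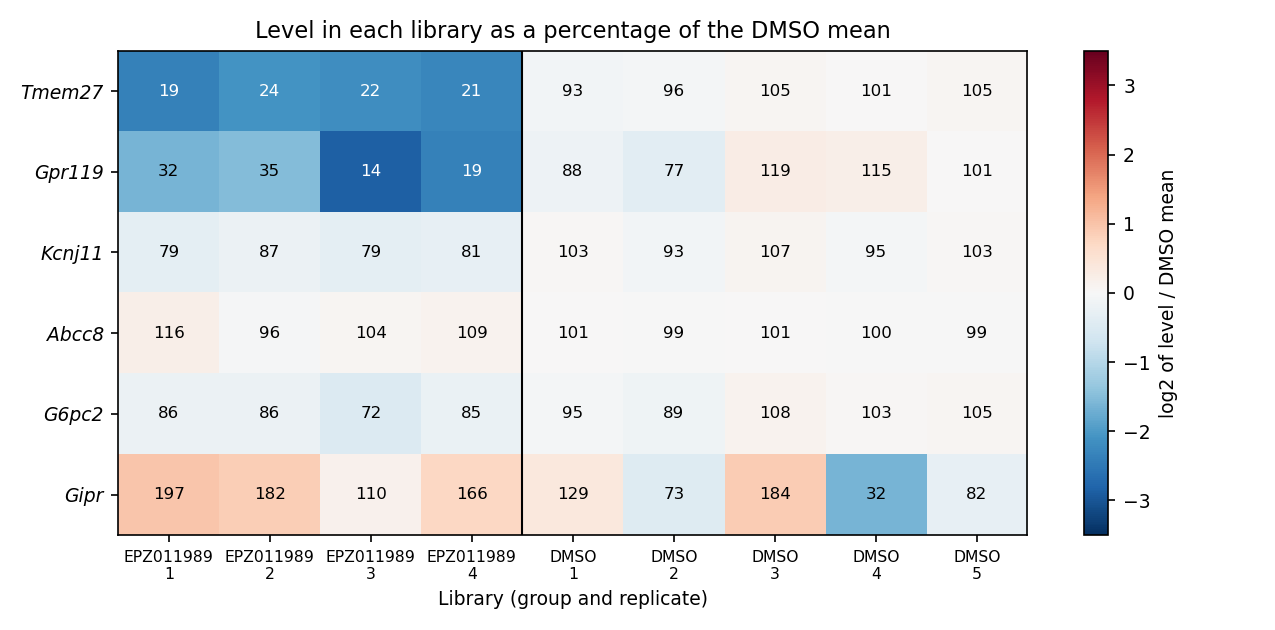
Level of each tested gene (rows) in each library (columns) as a percentage of its DMSO mean, printed in the cell, with colour for its log2 (blue lower, red higher). Tmem27 lies between 19.5% and 23.5% and Gpr119 between 13.8% and 34.7% in EPZ011989 libraries, while Abcc8 lies between 96.5% and 115.8%.

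The peptide hormone receptors were near the limit of detection. Among low counts in this table, 1 (3970 values), 4 (3046 values) and 5 (2732 values) were more frequent than 2 (2108 values) or 3 (2160 values). No source used here says how a fragment was counted. The floor was set at 12 counts, taking 4 counts to stand for 1 fragment and 3 fragments as the limit. That is 0.158 to 0.169 CPM in EPZ011989 libraries and 0.162 to 0.203 CPM in DMSO libraries. Gipr had 39, 34, 22 and 31 counts in EPZ011989 libraries and 25, 13, 35, 5 and 15 counts in DMSO libraries. These ranges overlapped, and counts this low carry a large counting error. Its level was 0.430 ± 0.099 CPM with EPZ011989 and 0.263 ± 0.153 CPM in DMSO, and the change of 0.70 ± 0.50 (log2, SE) missed the threshold (adjusted p = 0.365, edgeR). The 95% interval, from -0.28 to 1.68, includes both no change and a rise of more than 2-fold.

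Glp1r had 21 and 8 counts in EPZ011989 replicates 1 and 4 and 0 in the other two EPZ011989 libraries and in all 5 DMSO libraries. Only 1 of these 9 values was above the floor of 12 counts, so no fold is given. Gcgr, the receptor for the hormone that these cells make, had 4 counts in EPZ011989 replicate 1 and 0 in the other 8 libraries. Ffar1 was at a count of 0 throughout, and the floor in the shallowest library is 0.203 CPM. These limits cover counting error only. A count near 0 can also be a failed estimate: Prkar1a, a protein kinase A subunit gene that most cells use, chosen after its values were seen, is listed at 0 to 4 counts.

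Of the 9 members, 6 passed the filter on low counts, of which 4 were called lower and 0 higher. Of all 14754 tested genes, 7.96% were called lower and 24.1% were called in either direction. Among those that averaged 5 CPM or more, 10.8% were called lower. The same 4 members had no overlap between groups, where 8.77% of all tested genes had none in that direction and 16.1% had none with EPZ011989 higher. The median log2 fold change was -0.29 over the 6 tested members and 0.03 over all tested genes. The members were chosen with earlier results of these data known. These member counts, the median and the ranks of Tmem27 and Gpr119 thus support nothing by themselves.

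Per kilobase of exon, in EPZ011989 cells the order of levels was Abcc8 (35.4 CPM), Kcnj11 (12.4 CPM), G6pc2 (8.54 CPM), Tmem27 (2.81 CPM), Gpr119 (1.38 CPM) and Gipr (0.124 CPM). In DMSO cells it was Abcc8 (33.3 CPM), Kcnj11 (15.2 CPM), Tmem27 (13.1 CPM), G6pc2 (10.4 CPM), Gpr119 (5.51 CPM) and Gipr (0.0754 CPM). Tmem27 and G6pc2 thus stood in opposite order in the groups. Glp1r, Gcgr and Ffar1 came after Gipr in both groups and cannot be ordered among themselves.

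The nearest tested genes on either side of the members that fell, 3 a side, were compared with them, and none fell as far as Tmem27 or Gpr119. For comparison, 7.96% of all tested genes were called lower and 16.2% higher. Around Tmem27, 2 of 6 were called lower, Zrsr2 at -0.22 and Ap1s2 at -0.37 (log2 fold change, adjusted p = 0.0443 and 0.0235, edgeR), while Siah1b, the closest, was at -0.12 and did not pass. Around Gpr119, 0 of 6 were called lower, and the closest, Slc25a14, was at -0.13 (adjusted p = 0.454, edgeR). Arhgap36, 789 kb from Gpr119, was called higher at 1.54 (adjusted p = 0.0233, edgeR). Around Kcnj11, 0 of 6 were called. Around G6pc2, Bbs5 was called lower at -0.54 and Cers6 higher at 1.84, while its closest neighbours Spc25 and Abcb11 did not pass.

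**Figure D4:**
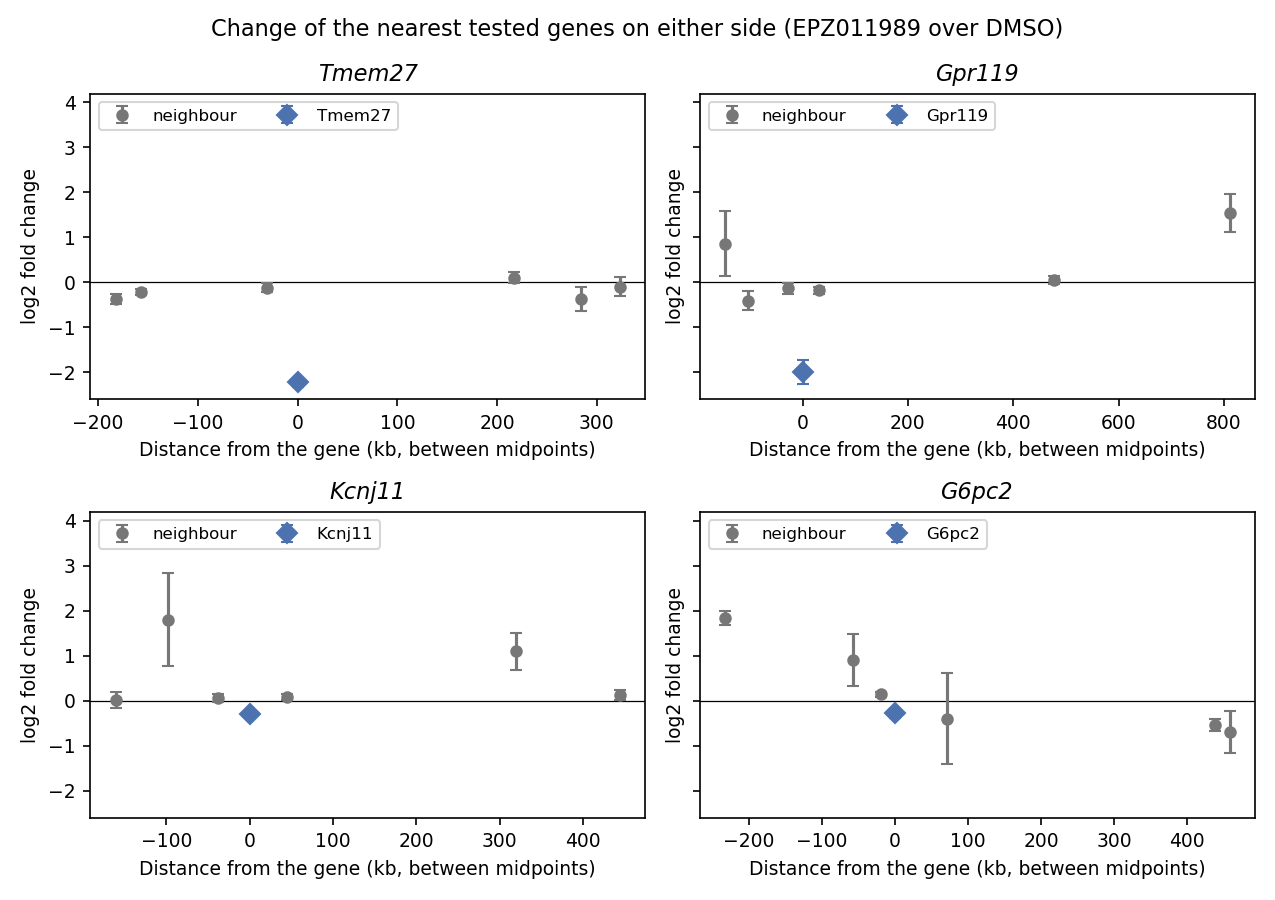
Log2 fold change, EPZ011989 over DMSO, ± SE (y axis) of Tmem27, Gpr119, Kcnj11 and G6pc2 (blue diamonds) and of the 3 nearest tested genes on either side (grey), against the distance between gene midpoints in kb. No neighbour of Tmem27 or Gpr119 comes near their log2 fold changes of -2.22 and -1.997.

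For each member that fell, the genes with the most similar course over the 9 libraries were named by Pearson's r of log2(CPM + 0.5) among genes that averaged 5 CPM or more, as a description. The 9 points share the treatment contrast, so r mostly reflects the group difference, and not its size. For Tmem27 they were Ifrd1 (r = 0.995), Klhdc2 (0.992) and Sgk2 (0.992), of which Sgk2, a serine/threonine kinase gene, was at 13.4 CPM with EPZ011989 and 33.2 CPM in DMSO. For Gpr119 they were Soat1 (0.988), Acpl2 (0.988) and Nap1l5 (0.975). Soat1, which encodes a cholesterol-esterifying enzyme, was at 125.5 CPM with EPZ011989 and 181 CPM in DMSO. For Kcnj11 they were Hn1l (0.973), Fbf1 (0.965) and Pus10 (0.961), and for G6pc2 Ece2 (0.966), Actr6 (0.934) and Frmd4b (0.927).

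Among other receptors for lipids and metabolites, 1 of 12 listed genes was called lower and 1 higher, 2 did not pass, 7 were below the filter and Hcar1 was not analysed here. Of all tested genes, 7.96% were called lower and 16.2% higher. Gpr142, a receptor for aromatic amino acids in islets, was at 0.407 ± 0.203 CPM with EPZ011989 and 1.19 ± 0.48 CPM in DMSO, a log2 fold change of -1.55 ± 0.45 (SE, adjusted p = 0.0287, edgeR). No gene of the list was called lower without EPZ011989 replicate 1 or 3 or DMSO replicate 1, 2 or 5, and 2 were without EPZ011989 replicate 2. Cnr1, a cannabinoid receptor, was at 0 in every DMSO library and 0.345 ± 0.121 CPM with EPZ011989, at least 1.96-fold higher against the floor of 12 counts per DMSO library. The fatty acid receptor gene Ffar2, which lies near Ffar1, did not pass, and Ffar3 and Ffar4 were below the filter.

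Of 14 other class B receptor and RAMP genes, the relatives and partners of Glp1r, Gipr and Gcgr, 6 were called higher and 0 lower, 2 did not pass and 6 were below the filter, where 16.2% of all tested genes were called higher. All 6 had DMSO means under 0.25 CPM and passed the filter through the EPZ011989 libraries, so their count supports nothing by itself. Calcr, the calcitonin receptor, was at 4.37 ± 1.22 CPM with EPZ011989 and 0.191 ± 0.042 CPM in DMSO (log2 fold change 4.50 ± 0.28 SE, adjusted p = 1.54e-06, edgeR). Ramp3, which encodes a protein that joins such receptors, was at 3.44 ± 0.79 CPM with EPZ011989 and 0.188 ± 0.207 CPM in DMSO. Vipr2, a receptor for vasoactive intestinal peptide and PACAP, was at 1.77 ± 0.38 CPM with EPZ011989 and 0.247 ± 0.168 CPM in DMSO. Vipr1, Adcyap1r1 and Pth1r were called too, at about 0.5 CPM each with EPZ011989.

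Genes for the ligands and their processing did not pass: 0 of 4 tested were called, beside 24.1% of all tested genes. Among the 4 were Gcg, the source of glucagon and of glucagon-like peptide 1, and Pcsk2, the prohormone convertase that makes glucagon. Gip, Dpp4 and Pcsk1 were below the filter.

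Downstream of the receptors, 8 of 29 tested genes for G proteins and cAMP effectors were called higher and 0 lower, beside 16.2% higher and 7.96% lower of all tested genes. The list's median log2 fold change was 0.12, beside 0.03 over all tested genes. Prkar2b, a regulatory subunit of protein kinase A, was at 12.3 ± 1.5 CPM with EPZ011989 and 0.853 ± 0.116 CPM in DMSO. Rapgef3, which encodes one of the EPAC cAMP sensors, was at 1.76 ± 0.70 CPM with EPZ011989 and 0.465 ± 0.205 CPM in DMSO, while the more abundant EPAC gene Rapgef4 did not pass (92.0 CPM with EPZ011989 and 103.2 CPM in DMSO). Plcb3, a phospholipase C of Gq signalling whose exons overlap those of Ppp1r14b, was at 32.7 ± 1.4 CPM with EPZ011989 and 20.2 ± 1.5 CPM in DMSO (log2 fold change 0.69 ± 0.08 SE, adjusted p = 7.71e-05, edgeR). Gnaz, Gnal, Adcy3, Adcy5 and Gnas were also called, Gnas narrowly (adjusted p = 0.0493, edgeR) and with exons that overlap antisense genes. Single libraries changed this count: 3 were called higher without DMSO replicate 3 or 5, 5 without DMSO replicate 2 or 4 and 4 without EPZ011989 replicate 1, 3 or 4. Without EPZ011989 replicate 2, 7 were called lower.

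Of 10 tested genes for glucose uptake and glucose 6-phosphate, 4 were called higher and 0 lower, beside 16.2% and 7.96% of all tested genes, with a median log2 fold change of 0.17. Without EPZ011989 replicate 2, 7 were called higher and 1 lower. Pfkfb3, which makes the activator of phosphofructokinase, was at 18.7 ± 2.7 CPM with EPZ011989 and 10.8 ± 0.9 CPM in DMSO (log2 fold change 0.79 ± 0.11 SE, adjusted p = 3.89e-04, edgeR). The glucose transporter genes Slc2a3 (91.2 CPM with EPZ011989 and 72.3 CPM in DMSO) and Slc2a8 (23.3 and 19.5 CPM) and the hexokinase gene Hk2 were the others. G6pc3, the ubiquitous relative of G6pc2, did not pass (73.5 CPM with EPZ011989 and 67.9 CPM in DMSO).

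Of 14 tested genes for membrane excitation, 5 were called higher and 1 lower, beside 16.2% and 7.96% of all tested genes, with a median log2 fold change of 0.15. The one that fell was Kcnk16, which encodes an islet background potassium channel, at 3.49 ± 0.36 CPM with EPZ011989 and 9.46 ± 0.66 CPM in DMSO (log2 fold change -1.44 ± 0.11 SE, adjusted p = 6.84e-06, edgeR). Cacnb3, a calcium channel beta subunit, was at 59.3 ± 9.1 CPM with EPZ011989 and 25.2 ± 2.0 CPM in DMSO. Kcnk3, Cacna1a and Scn3a were also called higher, Scn3a with overlapping groups. Kcnj8 and Abcc9, the other KATP subunit genes, did not pass. Without EPZ011989 replicate 2, 4 of the list were called lower, and 3 were called higher without EPZ011989 replicate 1.

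Among 7 relatives and partners of collectrin, 3 were tested. Of these, 1 was called higher and 0 lower, beside 16.2% and 7.96% of all tested genes. It was Bace2, the protease known to shed collectrin in beta cells, at 83.0 ± 12.01 CPM with EPZ011989 and 53.4 ± 2.6 CPM in DMSO (log2 fold change 0.63 ± 0.10 SE, adjusted p = 7.34e-04, edgeR). Snapin, which encodes a binding partner of collectrin, was at 27.0 CPM with EPZ011989 and 28.5 CPM in DMSO and did not pass. Slc6a18, Slc6a19 and Slc6a20a were below the filter.

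**Figure D5:**
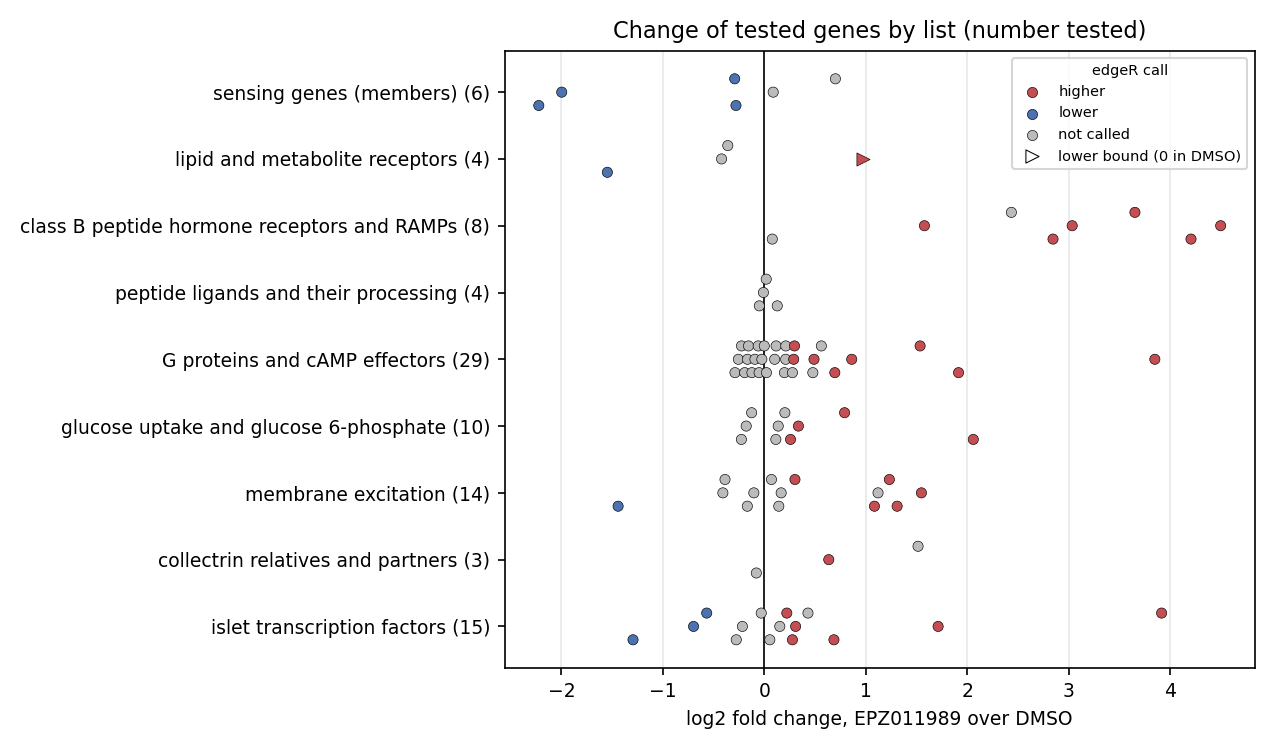
Log2 fold change, EPZ011989 over DMSO (x axis), of tested genes in each list (rows, with the number tested), coloured by the edgeR call, with a triangle for Cnr1 at its lower bound. Members include Tmem27 at -2.22 and Gpr119 at -1.997. Called higher are 6 of 8 tested class B genes, beside 16.2% of all tested genes. Those 6 passed the filter through the EPZ011989 libraries, so their count supports nothing by itself.

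Of 15 tested transcription factor genes of islets, 3 were called lower, 6 were called higher and 6 did not pass. The shares over all tested genes were 7.96% lower and 16.2% higher, and the list's median log2 fold change was 0.15. Rfx6, a factor of islet cell formation and function, was at 18.04 ± 5.86 CPM with EPZ011989 and 44.2 ± 1.8 CPM in DMSO, and was one of those called lower. Isl1, Nkx2-2, Mafa and Foxa3 were among those called higher, and Foxa2, Pax6 and Neurod1 did not pass. Foxa3 (0.549 CPM with EPZ011989 and 0.0343 CPM in DMSO) had counts in only 1 DMSO library. It passed the filter through the EPZ011989 libraries, so its place in the count supports nothing by itself. Without EPZ011989 replicate 2, 5 were called lower, and without EPZ011989 replicate 1, 3 were called higher.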

How the data were processed

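Poly-A RNA-seq libraries of αTC1 cells were grouped by the treatment in their titles (4 with EPZ011989, 5 with DMSO). The authors deposited whole-number counts per gene. HISAT2, StringTie, DESeq2 and the mm10 genome are named in the submitters' processing notes, with no version or strand setting. Also, the authors deposited a normalised signal table of 20796 rows, in which every value is the count divided by 1 factor per library. It served only for that check and for the limma alternative. Replicate counts within a group differed by more than sampling noise (chi-square per degree of freedom at least 4.03 on counts already divided by 4).

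Genes were filtered with filterByExpr (minimum count 10), leaving 14754 of 33212 rows. They were tested with edgeR 4.0.16 in R 4.3.3 (TMM factors, robust quasi-likelihood test on the 2 groups), with Benjamini-Hochberg adjustment over all 14754 genes and a threshold of 0.05. The SE of a log2 fold change is its size over the square root of F, and intervals are at the 95% level of the normal distribution. The same steps were tested on simulated data. CPM per kilobase used GENCODE M21 exon lengths. Pairing by replicate number was not seen: after each group's mean was subtracted, same-numbered libraries correlated at -0.136 to 0.046. So few libraries cannot exclude pairing, and the main fit used no block. For 136 symbols carried by several rows, the row matching the GENCODE name was taken. Alternatives were other scaling factors and filters, DESeq2 1.42.0, limma 3.58.1, counts divided by 4, a length correction, a replicate block and leaving out libraries. The named genes are all members, called genes of the lists, the 3 most similar genes and the 3 nearest tested genes a side, with exceptions marked in the text. The members and lists were chosen with earlier results of these data known. Some genes of the lists count in the totals and are not reported here by name.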

Additional observations from a re-analysis of the deposited data

Results flagged for a closer look

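Of 87 groups of libraries from 45 genes, 5 held 1 library far from the rest of its group by Dixon's test. By chance that test marks about 1 group in 20, where values are not tied. For Gcgr with EPZ011989 and Foxa3 in DMSO, 1 library had counts and the others 0, which the test always marks. G6pc2 was at 14.7 CPM in EPZ011989 replicate 3, the lowest of its group, and its call was lost without that library. Gcgr was at 0.0530 CPM in 1 EPZ011989 library and 0 in the others, which is under the floor of 12 counts. The other 3 were the highest DMSO libraries of Pth1r (0.229 CPM), Scn3a (1.09 CPM) and Foxa3 (0.171 CPM).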

How the results depend on the processing

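Tmem27 (log2 fold change -2.28 to -2.17) and Gpr119 (-2.20 to -1.80) were called lower in all 20 alternatives, and no tested member that was called changed direction. Kcnj11 lost its call only in the fit with a replicate block (-0.28, adjusted p = 0.103, edgeR) and G6pc2 in 8 alternatives, that fit included (adjusted p = 0.203, edgeR). With the replicate block, 471 of all genes were called lower and 1550 higher, 2 members lower, no lipid or metabolite receptor in either direction (0), 3 G protein and cAMP genes higher, 2 excitation genes higher and 2 transcription factor genes higher. The numbers 1 to 4 are not known to mark shared cultures: after each group's mean was subtracted, EPZ011989 libraries correlated best with DMSO replicates 5, 1, 5 and 5. Upper-quartile factors left 776 of all genes lower and 77.9% of calls higher, library size alone 75.6%, and TMM factors 67.0%. Removing a trend with gene length gave 1906 lower (56.7% of calls higher), with 5 G protein and 3 excitation genes lower. Requiring 1 CPM in 4 libraries left 3 class B genes higher and 0 lipid receptors in either direction. Counts divided by 4 left 3 class B genes and 0 lipid receptors higher. Without EPZ011989 replicates 2 and 4 together, 4 G protein, 1 glucose and 3 excitation genes were lower. The causes were not tested.

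Leaving out 1 library at a time gave 781 (without EPZ011989 replicate 3) to 2377 (without EPZ011989 replicate 2) of all genes lower and 1861 to 2939 higher, 3 to 4 members lower, and a log2 ratio difference of 0.32 to 0.45. Genes called lower numbered 0 to 2 for lipid receptors, 0 to 7 for G proteins, 0 to 1 for glucose uptake, 1 to 4 for excitation and 2 to 5 for transcription factors. Genes called higher numbered 1 for lipid receptors, 4 to 6 for class B genes, 3 to 10 for G proteins, 3 to 7 for glucose uptake, 3 to 6 for excitation, 1 for collectrin relatives and 3 to 7 for transcription factors. In simulated counts for 14754 genes, 50 genes were changed at each of 4 sizes. Of these, 10% of 1.25-fold, 64% of 1.5-fold, 88% of 2-fold and 94% of 4-fold changes were recovered. In the same simulation, 12 genes that had not been changed were called. In the data 3562 genes were called, far more than were changed in the simulation, which makes the adjusted threshold less strict there. The simulated shares therefore do not carry over to Kcnj11 and G6pc2.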
